A study of Mus musculus with 18 samples.

Results

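Expression was described for 10 heat shock chaperone genes, chosen by symbol: Hspa1a, Hspa1b, Hspa5, Hspa8, Dnajb1, Hsp90aa1, Hsph1, Hspd1, Hspe1 and Bag3. The table held 45777 genes, and all 10 chaperone genes were among the 17159 that passed the filter on low counts. RNA was measured by sequencing in bone marrow-derived mast cells (BMMC) of mouse, which are grown from marrow flushed from femurs and tibias. The study asked which transcripts differ when Sirt6, a histone deacetylase, is lacking. The KO cells were LysM-Cre; Sirt6 flox/flox, in which the promoter of lysozyme M, a myeloid gene, drives Cre. The WT cells were Sirt6 flox/flox, and both genotypes therefore carried the floxed alleles.

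Each genotype was sampled at levels 0, 20 and 60, with 3 libraries in each of the 6 groups. LPS is the labelled treatment at levels 20 and 60, with none named at level 0, and the unit of the levels is not given. FcεRI, through which mast cells respond to IgE, appears in the study's title, and no label says how it was engaged. The 3 libraries of a group carry the numbers 4120, 414 and 6110, which recur in every group. What a number stands for is not stated, so p-values measure the spread between these samples, which may be technical. The 3 libraries of 1 genotype that share a number are called a set here, which gives 6 sets.

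Molecular chaperones bind unfolded proteins and help them fold. HSP70 proteins hold and release client chains in a cycle driven by ATP, J-domain proteins such as DNAJB1 start that cycle, and nucleotide exchange factors such as HSPH1 and BAG3 end it. HSP90 acts on later folding steps of kinases and receptors, and the HSP60 and HSP10 chaperonin folds proteins inside mitochondria. Heat shock factor 1 (Hsf1) drives the inducible members through heat shock elements, while the unfolded protein response drives Hspa5, the HSP70 of the endoplasmic reticulum.

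Total counts ran from 20026054 to 42265435 per library. The 37 genes of the mitochondrial genome took 4.09% to 41.9% of the counts, with 5 of 18 libraries over 20%, 3 of them WT and 2 KO. All 10 mast cell markers were found in every group, with summed levels of 26950 to 44660 CPM (counts scaled to library size) in KO and 17830 to 49100 CPM in WT. The 10 neutrophil markers, of which 9 were tested, summed to 8.97 to 28.1 CPM in KO and 0.946 to 6.30 CPM in WT, with Elane at 0 in every WT group, Ltf and Ly6g at 0 in WT at level 0, and none at 0 in KO. The 8 macrophage markers, of which 4 were tested, summed to 6.07 to 25.8 CPM in KO and 3.73 to 8.28 CPM in WT, with C1qa at 0 in KO at levels 0 and 20 and in WT at level 20, C1qb in KO at level 60 and Mrc1 in WT at levels 20 and 60. The 3 basophil markers summed to 114 to 198 CPM in KO and 121 to 233 CPM in WT, mostly from Cd200r3, which overlapped between genotypes. Mcpt8 averaged 7.96, 5.70 and 14.0 CPM in KO at levels 0, 20 and 60 (SD 3.65 to 17.5), against 1.86, 2.28 and 2.38 CPM in WT. Its libraries overlapped between genotypes at levels 0 and 20. At level 60 the lowest KO library had 3.85 CPM and the highest WT library 3.55 CPM. Prss34 averaged 2.43, 2.14 and 4.64 CPM in KO (SD 3.01, 2.21 and 6.03), against 0.491, 0.481 and 0.513 CPM in WT, and overlapped between genotypes at every level. The part of these cells in the differences between genotypes was not tested. In bulk RNA, a change in the number of cells of a type and a change in RNA per cell cannot be told apart. Counts per gene cannot check the deleted exons: Sirt6 differed by a log2 fold change of 0.18 (SE 0.13, adjusted p = 0.343, edgeR) over the mean of the levels. Lyz2, the lysozyme M gene, averaged 0.112, 0.109 and 0.0604 CPM in KO at levels 0, 20 and 60, against 2.25, 2.04 and 1.96 CPM in WT.

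In the mouse assembly GRCm38.p6, Hspa1a (chr17:34969359-34972156) and Hspa1b (chr17:34956429-34959238) lie on the minus strand of the same chromosome, 10120 bases apart. Hspd1 (chr1:55077833-55088243, minus strand) and Hspe1 (chr1:55088148-55091317, plus strand) stand head to head. Dnajb1 lies at chr8:83608175-83612653, Hspa8 at chr9:40801276-40805202, Hspa5 at chr2:34772090-34776529 and Bag3 at chr7:128523583-128546981, all on the plus strand. Hsp90aa1 lies at chr12:110691036-110696395 and Hsph1 at chr5:149616843-149636498, both on the minus strand. The spans of RefSeq hold exons, introns and untranslated parts together, and the counts were given per gene. No source used here says whether the libraries keep strand, so reads of Hspa1a and of Gm20481, which overlaps it by 2225 bases on the other strand, cannot be told apart. The same holds for the first bases of Hspd1 and Hspe1. On the same strand, the span of Bag3 overlaps 2610306O10Rik by 612 bases. That of Hspa8 overlaps the snoRNA genes Snord14c, Snord14d and Snord14e by 86, 86 and 90 bases.

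The upstream sequences below, from RefSeq promoters of GRCm38.p6, are shown for the gene with the largest fold changes against level 0 (Dnajb1), the near-identical pair (Hspa1a and Hspa1b) and the gene of the endoplasmic reticulum (Hspa5). RefSeq windows were found for 8 of the 10 genes. Capitals mark a 2-unit heat shock element (GAANNTTC or TTCNNGAA) or an ER stress response element, with both strands searched. Each line ends at the last base before the annotated start and covers 250 bases.
Dnajb1: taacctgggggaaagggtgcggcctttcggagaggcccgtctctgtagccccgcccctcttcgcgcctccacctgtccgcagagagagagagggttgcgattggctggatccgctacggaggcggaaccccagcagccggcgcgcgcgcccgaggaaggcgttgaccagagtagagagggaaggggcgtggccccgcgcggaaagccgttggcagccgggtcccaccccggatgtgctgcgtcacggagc
Hspa1a: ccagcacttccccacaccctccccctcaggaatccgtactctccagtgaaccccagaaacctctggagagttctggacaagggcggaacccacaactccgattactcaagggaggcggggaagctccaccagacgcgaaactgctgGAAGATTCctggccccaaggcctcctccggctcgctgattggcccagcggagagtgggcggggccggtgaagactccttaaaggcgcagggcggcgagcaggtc
Hspa1b: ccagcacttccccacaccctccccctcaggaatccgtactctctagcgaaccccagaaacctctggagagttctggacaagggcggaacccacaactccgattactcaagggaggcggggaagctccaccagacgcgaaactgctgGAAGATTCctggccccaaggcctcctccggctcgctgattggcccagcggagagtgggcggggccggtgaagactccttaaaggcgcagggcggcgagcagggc
Hspa5: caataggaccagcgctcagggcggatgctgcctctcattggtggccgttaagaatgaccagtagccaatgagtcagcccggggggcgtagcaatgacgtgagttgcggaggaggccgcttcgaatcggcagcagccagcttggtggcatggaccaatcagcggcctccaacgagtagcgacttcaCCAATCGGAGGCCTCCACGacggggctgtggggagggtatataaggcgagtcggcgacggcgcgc

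These windows lie at chr8:83607925-83608174 (Dnajb1), chr17:34972157-34972406 (Hspa1a), chr17:34959239-34959488 (Hspa1b) and chr2:34771840-34772089 (Hspa5). The Hspa1a and Hspa1b windows were identical at 247 of 250 bases (98.8%), and both held a 2-unit heat shock element at position -104. Hsph1 held one at position -33. Such an element was found in 12.8% of all 32851 windows of this length. No such element was found in the windows of Dnajb1 and Bag3. The Hspa5 window held an ER stress response element at position -65, a motif found in 0.113% of all windows. A 3-unit heat shock element, which contains 2-unit elements, was found in 0.466% of all windows. Among the chaperone genes it was found upstream of Hspe1 and, as the same bases on the other strand, in a window of Hspd1. It is shown for Hspe1 within its 30 bases at chr1:55088053-55088082, from position -95 to -66, as the stretch that the pair shares.
Hspe1: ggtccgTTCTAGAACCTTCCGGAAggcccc

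Per transcript length, Hspa8, the constitutive cytosolic HSP70, was the most abundant of the 10, with a median of 886 TPM, a level scaled for transcript length and library size, over the 18 libraries and a range of 468 to 1325 TPM. Its median ranked 141 among 17159 genes. Hspa5 followed with a median of 555 TPM (128 to 1121 TPM), and Dnajb1 with 193 TPM (23.0 to 559 TPM). Hsp90aa1, the inducible cytosolic HSP90, had a median of 77.6 TPM, and Hspe1 one of 64.8 TPM. Hspd1 had a median of 22.7 TPM and Bag3 one of 15.4 TPM. The heat-inducible HSP70 genes Hspa1b and Hspa1a had medians of 13.0 and 11.6 TPM, and Hsph1, the HSP110 exchange factor, was lowest at 5.92 TPM. The ranges of neighbours in this order overlapped in every case.

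**Figure D1:**
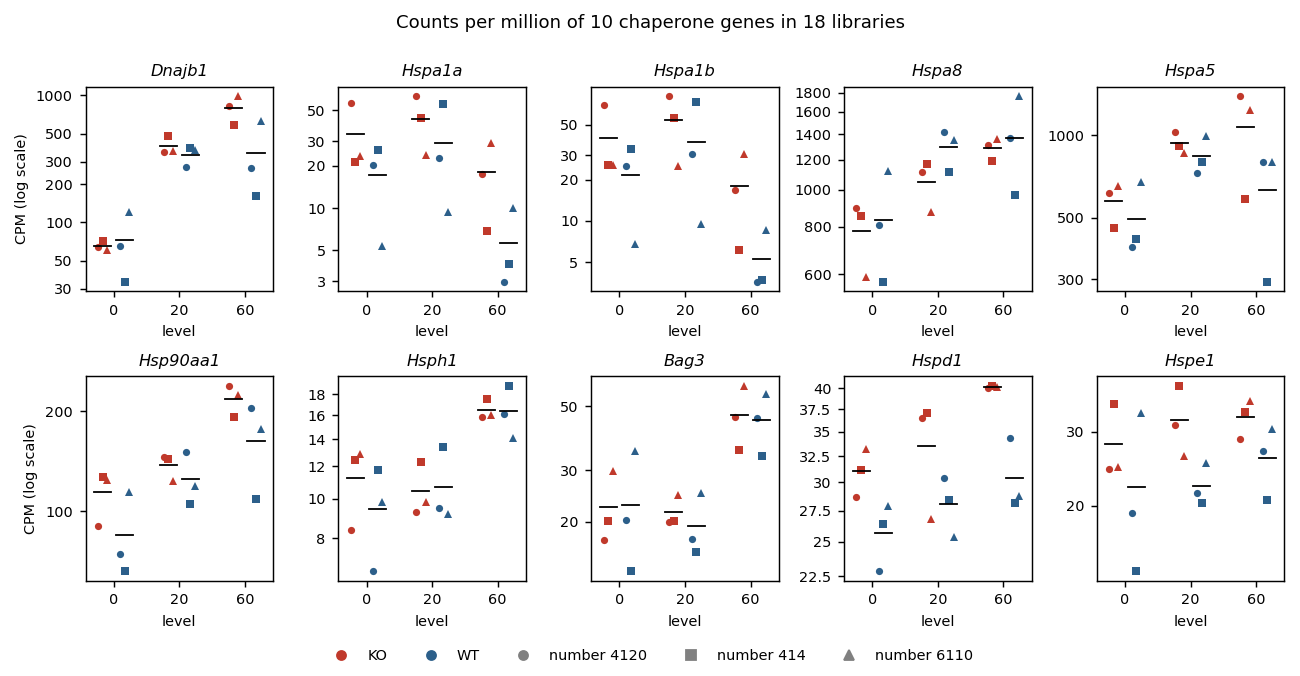
CPM (log axes) of the 10 genes in each of the 18 libraries at levels 0, 20 and 60, with KO in red left of WT in blue, symbols by number and black bars for group means. Dnajb1 reaches at most 120 CPM at level 0 and at least 160 CPM in all other libraries, and Hspa1b runs over 6.12 to 81.0 CPM in KO and 3.61 to 73.2 CPM in WT.

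Dnajb1, the J-domain partner of cytosolic HSP70, was higher at levels 20 and 60 than at level 0 in both genotypes. In the main edgeR fit, which has no term for the set, no other of the 10 genes passed the test between levels. Dnajb1 passed at level 20 in both genotypes and at level 60 in KO. In WT at level 60 its log2 fold change was 2.27 (adjusted p = 0.056, edgeR). In KO it had 64.0, 71.8 and 60.9 CPM at level 0 in numbers 4120, 414 and 6110. At level 20 it had 359, 477 and 368 CPM, and at level 60 it had 819, 590 and 989 CPM. The KO libraries of the 3 levels did not overlap. In WT it had 65.1, 34.1 and 120 CPM at level 0, 272, 383 and 371 CPM at level 20, and 270, 160 and 626 CPM at level 60. WT libraries at both LPS levels lay above all WT libraries at level 0, while levels 20 and 60 overlapped.

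The log2 fold change of Dnajb1 at level 20 against level 0 was 2.61 in KO (SE 0.47, adjusted p = 0.0115, edgeR quasi-likelihood test with Benjamini-Hochberg adjustment). In WT it was 2.23 (SE 0.46, adjusted p = 0.0362). At level 60 against level 0 it was 3.61 in KO (SE 0.49, adjusted p = 0.00082), a 12.2-fold difference. In WT it was 2.27 at level 60 (SE 0.46, adjusted p = 0.056), above the threshold of 0.05. The KO call at level 60 held without each of the 6 libraries in turn, with adjusted p from 0.00139 to 0.0121, and without the 5 libraries over 20% mitochondrial counts (3.85, adjusted p = 0.0156). It was lost, at 3.57 (adjusted p = 0.122), when number 4120 was left out of all groups, a choice made after seeing the data. The KO call at level 20 was lost without KO level 0 of number 4120, 414 or 6110, or KO level 20 of number 414 (adjusted p = 0.0981, 0.0972, 0.0906 and 0.059). The WT call at level 20 was lost without WT level 0 of number 4120 or 414, or WT level 20 of number 4120, 414 or 6110 (adjusted p = 0.181, 0.212, 0.0524, 0.144 and 0.107). In WT at level 60 the gene passed without WT level 60 of number 414 or WT level 0 of number 6110 (adjusted p = 0.0166 and 0.0335).

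**Figure D2:**
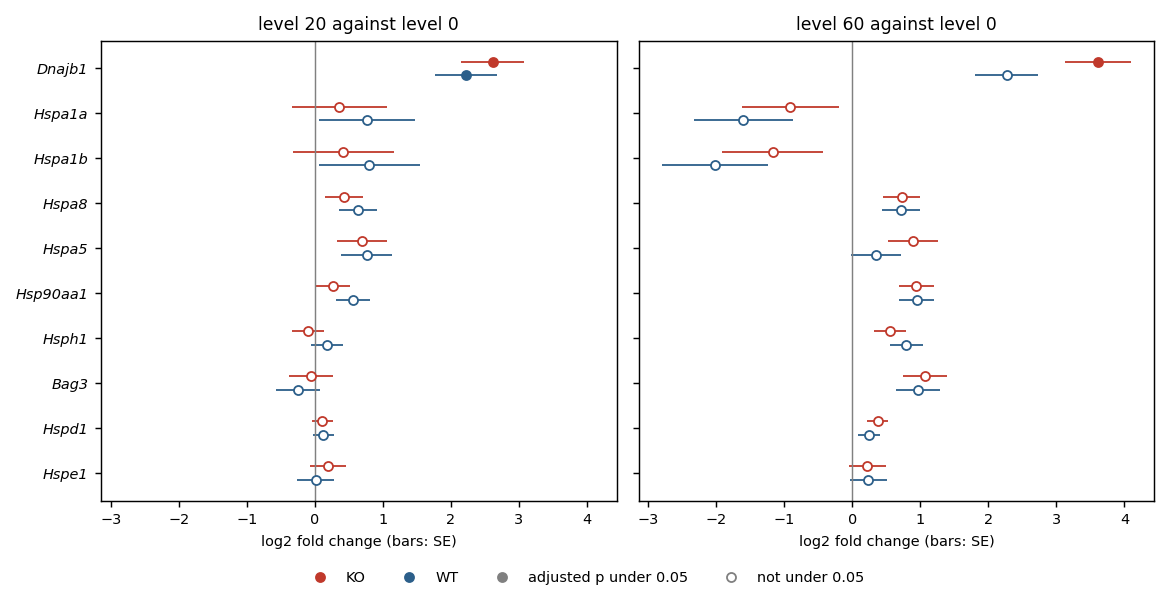
Log2 fold changes (x axis) of the 10 genes at level 20 and at level 60 against level 0, with KO in red above WT in blue, SE as bars and filled points where the adjusted p was under 0.05. Dnajb1 stands apart at 2.61 and 2.23 at level 20 and at 3.61 and 2.27 at level 60, and Hspa1a and Hspa1b lie below 0 at level 60 with wide errors.

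Of the 10 genes, 1 was called at level 20 against level 0 in KO, where 0.449% of all tested genes were called, and 1 in WT, where 0.6% were. For level 60 against level 0, 1 was called in KO (2.54% of all tested genes) and 0 in WT (0.221%). Unadjusted p under 0.05, in either direction, was found there for 7 of the 10 genes in each genotype, against 14.2% of all tested genes in KO and 7.94% in WT. In KO all 7 were higher at level 60. In WT Hspa1a and Hspa1b were among the 7 and were lower, with log2 fold changes of -1.60 and -2.02. DESeq2 called Dnajb1, Hsp90aa1 and Bag3 in KO, where it called 967 of all tested genes. In WT it called Dnajb1 and Hsp90aa1, where it called 258 of all tested genes. For level 60 against level 20, 0 were called in KO (1.11% of all tested genes) and 0 in WT (0.443%). An unadjusted p under 0.05 was found for 4 of the 10 in each genotype in that last comparison, against 10.4% of all tested genes in KO and 7.56% in WT. In KO all 4 were higher at level 60, and in WT Hspa1a and Hspa1b were lower while Hsph1 and Bag3 were higher. DESeq2 called Bag3 higher in both genotypes, and Hspa1a and Hspa1b lower in WT. It called 543 of all tested genes there in KO and 327 in WT. The median log2 fold change of the 10 genes at level 60 against level 0 was 0.64 in KO and 0.53 in WT, against 0.0011 and -0.021 for all tested genes. The comparisons of a genotype share their level 0 libraries.

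By libraries that did not overlap, Hspa5 and Dnajb1 lay higher at level 20 than at level 0 in KO and in WT, as did 4.2% of all tested genes in KO and 5.46% in WT. At level 60 against level 0, 6 of the 10 genes lay so in KO (Hspa8, Dnajb1, Hsp90aa1, Hsph1, Hspd1 and Bag3), against 9.18% of all tested genes, and 3 in WT (Dnajb1, Hsph1 and Hspd1), against 5.41%. The same 6 names lay higher at level 60 than at level 20 in KO, against 8.58% of all tested genes. In WT, Hsph1 and Bag3 lay higher at level 60 than at level 20 (5.25% of all tested genes) and Hspa1b lower (6.1%). Within sets, 4 genes were higher at level 20 than at level 0 in all 6 (Hspa1a, Hspa5, Hspa8 and Dnajb1), against 4.6% of all tested genes. For level 60 against level 20, Hsp90aa1, Hsph1 and Bag3 were higher in all 6 sets, against 8.37% of all tested genes.

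The number paired the KO libraries across levels, and a fit with a term for each set as the block called 5 of the 10 genes at level 60 against level 0 in KO, where it called 10.7% of all tested genes. These were Dnajb1 (adjusted p = 0.00011), Bag3 (adjusted p = 0.00154), Hsp90aa1 (adjusted p = 0.011), Hspa8 (adjusted p = 0.0213) and Hsph1 (adjusted p = 0.0465). The blocked fit called, at level 60 against level 20 in KO, Bag3 (adjusted p = 0.00227) and Hsph1 (adjusted p = 0.0359), against 5.68% of all tested genes. Of the 10 genes it called Dnajb1 alone at level 20 against level 0, in KO (adjusted p = 0.00176, 0.787% of all tested genes called) and in WT (adjusted p = 0.00269, 1.1% called). In WT the number did not pair level 60 with the other levels. The blocked fit there called Dnajb1, Bag3, Hsph1 and Hsp90aa1 at level 60 against level 0 (adjusted p = 0.00536, 0.00733, 0.0266 and 0.0328, 2.79% of all tested genes called). At level 60 against level 20 in WT it called Bag3 (adjusted p = 0.00196, 3.41% called).

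Bag3, the exchange factor that links HSP70 to selective autophagy, was higher at level 60 than at level 20 in all 6 sets. In KO it had 17.2, 20.0 and 29.8 CPM at level 0 in numbers 4120, 414 and 6110, 19.9, 20.1 and 24.6 CPM at level 20, and 45.9, 35.3 and 58.8 CPM at level 60. In WT it had 20.2, 13.5 and 35.0 CPM at level 0, 17.4, 15.7 and 25.1 CPM at level 20, and 45.4, 33.5 and 55.0 CPM at level 60. Levels 20 and 60 did not overlap in either genotype, and levels 0 and 20 did. The log2 fold change at level 60 against level 20 was 1.12 in KO (SE 0.33, adjusted p = 0.139, edgeR) and 1.20 in WT (SE 0.33, adjusted p = 0.152). Neither passed in this fit, which has no term for the set. Relative to level 0, level 60 gave 1.06 in KO (SE 0.32, adjusted p = 0.108) and 0.96 in WT (SE 0.32, adjusted p = 0.345). Number 6110 had the highest Bag3 value in each of the 6 groups.

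Hsp90aa1 had 90.5, 127 and 125 CPM at level 0 in KO, 146, 143 and 123 CPM at level 20, and 239, 193 and 224 CPM at level 60. In WT it had 74.4, 65.9 and 114 CPM, then 151, 105 and 119 CPM, then 204, 109 and 176 CPM. The KO libraries at level 60 lay above all KO libraries at levels 0 and 20, and in WT levels 0 and 60 overlapped. Its log2 fold change at level 60 against level 0 was 0.94 in KO (SE 0.25, adjusted p = 0.0647, edgeR) and 0.95 in WT (SE 0.25, adjusted p = 0.191). Hsph1 averaged 11.2 ± 2.46, 10.5 ± 1.60 and 16.5 ± 0.949 CPM in KO (SD, n = 3) at levels 0, 20 and 60, and 9.42 ± 2.59, 10.7 ± 2.34 and 16.4 ± 2.44 CPM in WT (SD, n = 3). Its libraries at level 60 lay above those at levels 0 and 20 in both genotypes. Its log2 fold change at level 60 against level 0 was 0.55 in KO (SE 0.24, adjusted p = 0.292, edgeR) and 0.79 in WT (SE 0.24, adjusted p = 0.256).

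Hspa1a and Hspa1b, the classic stress-inducible HSP70 genes, had negative log2 fold changes at level 60 against both other levels in both genotypes, none of them called by edgeR. In KO, Hspa1b had 70.0, 25.7 and 25.6 CPM at level 0 in numbers 4120, 414 and 6110, 81.0, 56.4 and 25.2 CPM at level 20, and 16.8, 6.12 and 30.6 CPM at level 60. In WT it had 25.2, 33.3 and 6.79 CPM, then 30.7, 73.2 and 9.45 CPM, then 3.61, 3.71 and 8.65 CPM. WT libraries at level 60 lay below all WT libraries at level 20, and the other pairs of levels overlapped in both genotypes. Within sets, level 60 minus level 20 was -2.27 and -3.18 on the log2 scale in KO of numbers 4120 and 414, against -3.06 and -4.27 in WT. For number 6110 it was 0.28 in KO, against -0.13 in WT.

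The log2 fold change of Hspa1b at level 60 against level 20 was -1.60 in KO (SE 0.75, adjusted p = 0.483, edgeR) and -2.82 in WT (SE 0.80, adjusted p = 0.182). For Hspa1a it was -1.27 in KO (SE 0.71, adjusted p = 0.608) and -2.37 in WT (SE 0.74, adjusted p = 0.268). DESeq2 called both in WT (adjusted p = 0.0073 for Hspa1b and 0.0322 for Hspa1a), where it called 327 of all tested genes, and edgeR did not. Against level 0, level 60 gave -1.17 for Hspa1b in KO (SE 0.75, adjusted p = 0.553) and -2.02 in WT (SE 0.78, adjusted p = 0.453). Of their transcript windows of 100 bases, 47.1% of those of Hspa1a and 49.9% of those of Hspa1b also occur in the other gene, so the split of counts between them is uncertain. The gene Hspa1l holds 4.67% of the windows of Hspa1a and 3.29% of those of Hspa1b. Its counts were 4.37% to 6.47% of those of Hspa1a in the KO groups. In the WT groups they were 6.87% to 26.2%, highest at level 60. The ratio of Hspa1a to Hspa1b in CPM ran from 0.737 to 1.15 over the 18 libraries. With Hspa1a and Hspa1b alone summed to 1 gene, level 60 against level 20 gave -1.45 in KO (SE 0.74, adjusted p = 0.537) and -2.61 in WT (SE 0.77, adjusted p = 0.213).

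**Figure D3:**
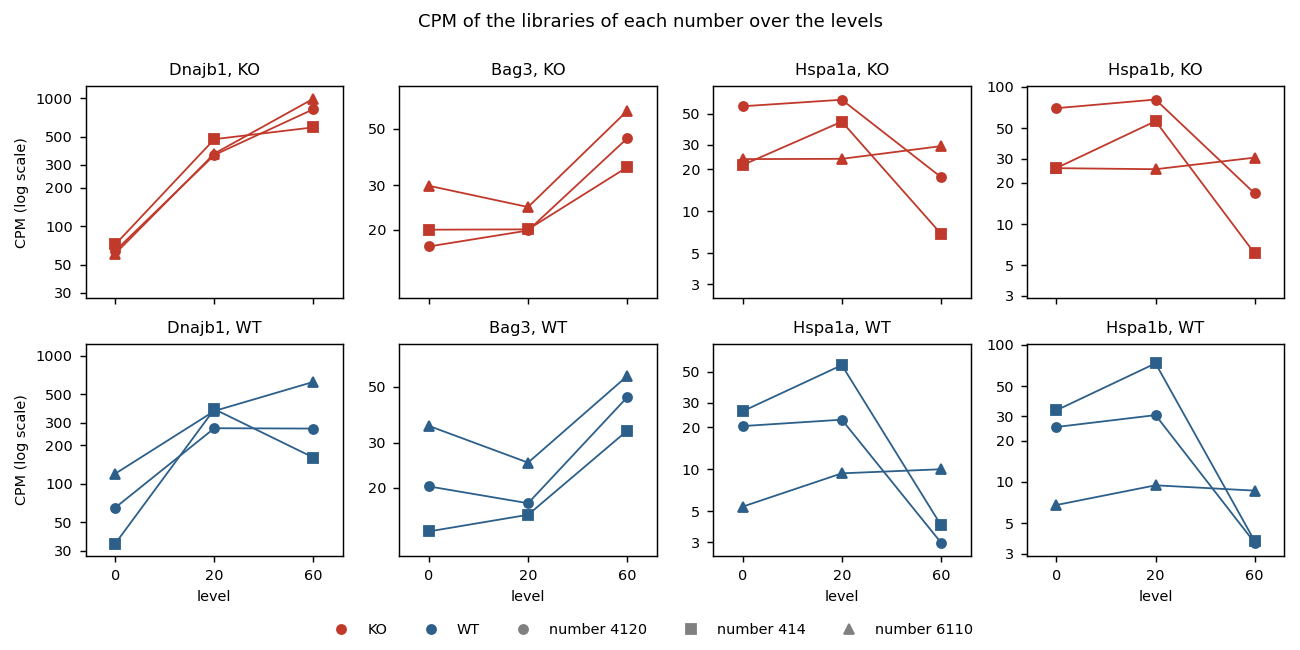
CPM (log axes, shared between genotypes for a gene) of Dnajb1, Bag3, Hspa1a and Hspa1b over levels 0, 20 and 60, with KO in the upper and WT in the lower row and a line for each number. The Bag3 lines climb between levels 20 and 60 in all 6 sets, while the Hspa1a and Hspa1b lines of numbers 4120 and 414 drop and those of number 6110 move by at most 0.30 on the log2 scale.

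Hspa5, also known as BiP, averaged 577 ± 103, 934 ± 84.4 and 1068 ± 425 CPM in KO (SD, n = 3) at levels 0, 20 and 60, and 495 ± 156, 840 ± 136 and 630 ± 292 CPM in WT (SD, n = 3). Libraries at level 20 lay above those at level 0 in both genotypes, and number 414 was lowest at level 60 in both, with 586 CPM in KO and 293 CPM in WT. Those 2 libraries had mitochondrial shares of 34.7% and 41.9%, among the 5 over 20%, and without the 5 libraries the log2 fold change in KO at level 60 against level 0 was 1.04 (adjusted p = 0.155, edgeR). With all libraries it was 0.89 (SE 0.37, adjusted p = 0.278). The KO libraries over 20% at levels 0 and 60 were those of number 414, so share and number cannot be told apart there. Without number 414 in all groups the value was also 1.04 (adjusted p = 0.214). With the mitochondrial genes left out it was 0.88 (adjusted p = 0.283). The part of the mitochondrial share in the Hspa5 values was not tested.

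Hspa8 averaged 780 ± 166, 1050 ± 157 and 1287 ± 88.6 CPM in KO (SD, n = 3) at levels 0, 20 and 60, and 833 ± 274, 1296 ± 160 and 1367 ± 396 CPM in WT (SD, n = 3). It was higher at level 60 than at level 0 in all 6 sets, as were Dnajb1, Hsp90aa1, Hsph1, Hspd1 and Bag3, where 10.7% of all tested genes were. Its log2 fold change at level 60 against level 0 was 0.72 in KO (SE 0.28, adjusted p = 0.218, edgeR) and 0.71 in WT (SE 0.28, adjusted p = 0.467). Of its transcript windows of 100 bases, 28.9% also occur in the pseudogene Gm15459 and 11.6% in the pseudogene Gm8355, both named in the deposited table. Of 6 pseudogenes that share windows with Hspa8, Hsp90aa1 or Hspd1 and were tested, these were the ones called between genotypes over the mean of the levels, at 1.70 (SE 0.18, adjusted p = 4.9e-05, edgeR) and 1.41 (SE 0.27, adjusted p = 0.00629).

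Gm15459 had 331, 415 and 204 CPM in KO at level 0 in numbers 4120, 414 and 6110, against 96.3, 67.0 and 100 CPM in WT. At level 60 it had 532, 829 and 436 CPM in KO, against 181, 125 and 157 CPM in WT. KO lay above WT in every library at each level, with log2 fold changes of 1.85 at level 0 (SE 0.32, adjusted p = 0.0164, edgeR), 1.29 at level 20 (SE 0.31, adjusted p = 0.178) and 1.96 at level 60 (SE 0.32, adjusted p = 0.00977). Its counts were 28.5% to 69.8% of those of Hspa8 in KO libraries and 8.90% to 13.5% in WT libraries. Hspa8 itself differed by -0.16 between KO and WT over the mean of the levels (SE 0.16, adjusted p = 0.51). With the counts of Gm15459, Gm8355 and Gm6210 added to it, a choice made after seeing the data, the log2 fold change was 0.26 (SE 0.17, adjusted p = 0.307), so the sign of the Hspa8 difference turned. Whether reads of Hspa8 were counted for these pseudogenes was not tested.

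**Figure D4:**
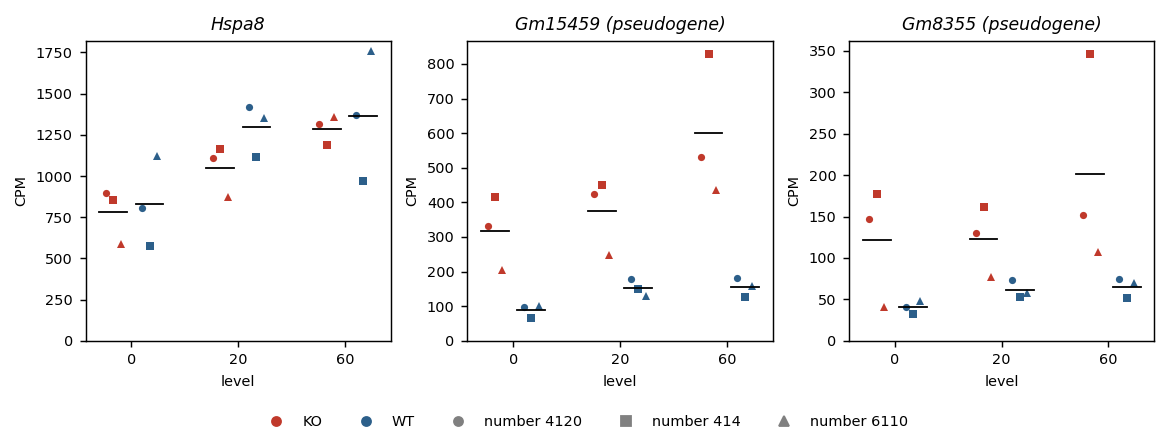
CPM (linear axes from 0) of Hspa8 and of the pseudogenes Gm15459 and Gm8355 in the 18 libraries, with KO in red left of WT in blue, symbols by number and black bars for group means. KO and WT overlap for Hspa8 at every level, and KO lies above WT in every library for Gm15459.

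Hsp90aa1 shared 39.6% of its windows with the pseudogene Gm12346 and 20.4% with Gm5844, whose counts together were 9.46% to 13.4% of its own in KO libraries and 8.92% to 12.7% in WT libraries. Hspd1 shared 25.8% of its windows with Hspd1-ps3, which had 1.06% to 2.33% of its counts in KO and 1.40% to 2.97% in WT. No transcript window of Hspa5, Dnajb1, Hsph1 or Bag3 was found in another gene. The counts of Hspa8, Hsp90aa1 and Hspd1 are therefore uncertain by how shared reads were assigned, which is not given in the sources used here.

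Hspd1, the mitochondrial HSP60 subunit, was the 1 gene of the 10 called between genotypes, with higher levels in KO over the mean of the levels, and in no other comparison of genotypes was any called. In KO it had 28.6, 31.1 and 33.2 CPM at level 0 in numbers 4120, 414 and 6110, 36.5, 37.1 and 26.8 CPM at level 20, and 40.0, 40.3 and 40.1 CPM at level 60. In WT it had 22.8, 26.4 and 27.9 CPM, then 30.4, 28.4 and 25.4 CPM, then 34.3, 28.1 and 28.7 CPM. KO lay above WT in every library at levels 0 and 60, and the genotypes overlapped at level 20. Hspe1, the HSP10 lid of the same chaperonin, averaged 28.0 ± 5.96, 32.1 ± 6.23 and 32.6 ± 3.44 CPM in KO (SD, n = 3) and 22.1 ± 9.96, 22.3 ± 2.62 and 26.0 ± 4.96 CPM in WT (SD, n = 3).

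The log2 fold change of Hspd1 over the mean of the levels was 0.31 (SE 0.09, adjusted p = 0.0391, edgeR), and 10.9% of all tested genes were called there. It was higher in KO in 9 of 9 pairs of number and level, as were 7.79% of all tested genes. That fit treats the 3 libraries of a set as independent. With the counts summed per set the value was 0.30 (adjusted p = 0.435, edgeR), and with the set as a random effect in limma-voom it was 0.30 (adjusted p = 0.389). The call was lost in 13 of 18 fits that left out 1 library, with adjusted p up to 0.0892. It held without number 4120 of KO level 0 or WT level 60, number 414 of KO level 60, or number 6110 of KO level 20 or WT level 0. Hspe1 had 0.39 (SE 0.16, adjusted p = 0.106), Hspa1a 1.08 (SE 0.41, adjusted p = 0.0977) and Hspa1b 1.05 (SE 0.43, adjusted p = 0.118). Hspa5, Dnajb1 and Hsp90aa1 had 0.38, 0.42 and 0.33, Bag3 and Hsph1 0.061 and 0.075, with adjusted p from 0.146 to 0.848.

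For the genotypes at a single level, 0 of the 10 genes were called at level 0 (0.274% of all tested genes), 0 at level 20 (0.21%) and 0 at level 60 (0.268%). Unadjusted p under 0.05 was found for 0, 0 and 4 of them, against 12.1%, 7.79% and 10.7% of all tested genes, and DESeq2 called 0 at each level. Libraries of the genotypes did not overlap for 1 of the 10 genes at each level, Hspd1 at levels 0 and 60 and Hspe1 at level 20, each higher in KO, where 5.94%, 8.35% and 7.34% of all tested genes lay so at levels 0, 20 and 60. At level 60 the largest log2 fold changes were 1.74 for Hspa1b (SE 0.77, adjusted p = 0.431, edgeR), 1.67 for Hspa1a (SE 0.73, adjusted p = 0.427) and 1.18 for Dnajb1 (SE 0.45, adjusted p = 0.366). The 95% interval for Dnajb1 ran from 0.24 to 2.13, and the SD of its 3 libraries was 200 CPM for KO, against 243 CPM for WT. Hspa5 had 0.76 (SE 0.37, adjusted p = 0.47), Hspd1 0.40 (SE 0.16, adjusted p = 0.377), Bag3 0.064 and Hsph1 0.0095. The number also paired the libraries at level 60, and a fit with a term for the number called 0 of the 10 there, against 1.07% of all tested genes.

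**Figure D5:**
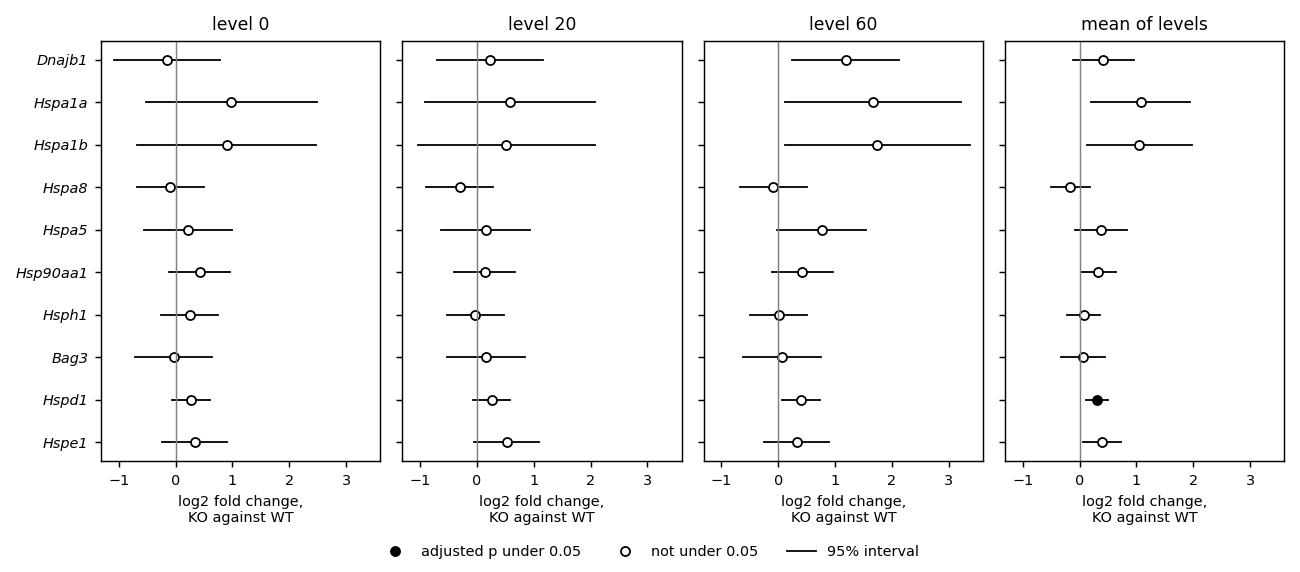
Log2 fold changes of KO against WT (x axis) for the 10 genes at levels 0, 20 and 60 and over the mean of the levels, with 95% intervals as lines and filled points where the adjusted p was under 0.05. Hspd1 is the only filled point, at 0.31 over the mean of the levels, and the intervals of Hspa1a and Hspa1b are the widest.

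The change of the genes with level was also compared between genotypes. For Dnajb1 the log2 fold change at level 60 against level 0 was 1.34 higher in KO than in WT (SE 0.62, 95% interval 0.016 to 2.66), with an unadjusted p of 0.0476 and an adjusted p of 1 in edgeR. Within sets the difference was 3.68, 3.04 and 4.02 on the log2 scale in KO of numbers 4120, 414 and 6110, against 2.05, 2.23 and 2.38 in WT. The share of all tested genes whose KO and WT sets separate in this way was not computed. Of the 10 genes, 0 were called in this comparison, nor at level 20, and no gene of the 17159 was (0% called in each). Unadjusted p under 0.05 was found for 188 genes at level 60 (1.1% of all tested genes) and 68 at level 20 (0.396%), of which 1 and 0 were among the 10. DESeq2 called 2 of all tested genes at level 60 and 1 at level 20, none of them among the 10.

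Other chaperone genes were listed by function, with earlier results of these data known. Of 17 other cytosolic HSP70, HSP110, HSP40 and small HSP genes, 3 were called higher at level 60 than at level 0 in KO. There 2.54% of all tested genes were called and 1.99% were higher. In WT 0 of the 17 were called, where 0.221% of all tested genes were. The 3 called in KO were Hspa4l, an HSP110-like exchange factor, Hspa14, a ribosome-associated HSP70, and the J-domain gene Dnajb6. Hspa4l averaged 118 ± 5.91 CPM in KO at level 60, against 42.1 ± 19.3 CPM at level 0 (SD, n = 3 each), a log2 fold change of 1.49 (SE 0.25, adjusted p = 0.00426, edgeR). In WT its log2 fold change was 1.23 (SE 0.25, adjusted p = 0.056). Hspa14 had 0.96 (SE 0.16, adjusted p = 0.00297) and Dnajb6 1.13 (SE 0.23, adjusted p = 0.0119) in KO. In WT these 2 genes had 0.30 (SE 0.155, adjusted p = 0.705, edgeR) and 0.53 (SE 0.225, adjusted p = 0.545). The list's median was 0.41 in KO and 0.30 in WT, against 0.0011 and -0.021 for all tested genes. No gene was called for a difference in this response between the genotypes. Between genotypes over the mean of the levels 2 of the 17 were called lower in KO, the J-domain genes Dnajc7 and Dnaja4, with -0.61 and -0.38, named after their values were seen. That share lies near the background, with 10.9% of all tested genes called there and 6.62% lower.

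Of 24 genes of endoplasmic reticulum chaperones and the unfolded protein response, 5 were called higher in KO over the mean of the levels and 0 lower, where 4.29% of all tested genes were higher and 6.62% lower. None of the 5 was called with counts summed per set or with the set as a random effect in limma-voom, where adjusted p over the 15 genes called in the lists ran from 0.21 to 0.466 and from 0.0997 to 0.4. The list median was 0.30, against 0.0053 for all tested genes. The 5 were Dnajb9, a J-domain partner of BiP, with 0.76 (SE 0.20, adjusted p = 0.027, edgeR), Sdf2l1 with 0.68 (SE 0.11, adjusted p = 0.00214), the lectin chaperone Canx with 0.54 and, named after their values were seen, Pdia6 with 0.46 and Edem1 with 0.40. Sdf2l1 averaged 24.0 ± 2.55, 26.7 ± 4.51 and 25.5 ± 2.85 CPM in KO (SD, n = 3) at levels 0, 20 and 60, and 15.5 ± 3.71, 17.2 ± 1.45 and 14.9 ± 2.29 CPM in WT (SD, n = 3). Dnajb9 was the 1 gene of the list called at level 60 against level 0 in KO, with 1.60 (SE 0.36, adjusted p = 0.0235, edgeR). In WT it had 1.52 (SE 0.36, adjusted p = 0.119).

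In the other 5 lists 8 genes were called over the mean of the levels, where 10.9% of all tested genes were, 4.29% higher and 6.62% lower, and 0 of the 8 were called in either fit that allows for the set. Of 11 mitochondrial chaperones and proteases, Hspa9, the mitochondrial HSP70, and Grpel1, its exchange factor, were called higher in KO over the mean of the levels, with 0.40 (SE 0.12, adjusted p = 0.0491, edgeR) and 0.64 (SE 0.15, adjusted p = 0.0166). Hspa9 was also higher at level 60 than at level 0 in KO, with 1.10 (SE 0.22, adjusted p = 0.0108, edgeR). In WT it had 0.49 (SE 0.215, adjusted p = 0.585), and the difference between genotypes in this response was not called. Of 8 BAG and other HSP70 co-chaperones, Bag2 and Bag4 were called higher in KO over the mean of the levels (0.73 and 0.45, adjusted p = 0.0234 and 0.0427 in edgeR). Fkbp4 had 0.42 and was the 1 called among 11 HSP90 genes, and Cct5 had 0.55 and was the 1 called among 14 TRiC and prefoldin genes, both shares below the 10.9% called in either direction. Of 6 heat shock factors and their regulators, 5 were tested, and Hsf1 and Hsf4 were called lower in KO over the mean of the levels, at -0.44 (SE 0.12, adjusted p = 0.0263) and -0.55 (SE 0.16, adjusted p = 0.0339). In each of these lists no other gene was called in that comparison. The list median there was -0.011 for the mitochondrial list (5 of 11 genes higher in KO) and 0.087 for the BAG list (5 of 8). It was 0.081 for the HSP90 list (6 of 11), 0.096 for TRiC and prefoldin (9 of 14) and -0.24 for the heat shock factors (2 of 5). The summed neutrophil markers did not overlap between the genotypes (8.97 to 28.1 CPM in KO, against 0.946 to 6.30 CPM in WT), and their part in these differences was not tested. As for Hspd1, that fit treats the libraries of a set as independent, and of all tested genes 26 were called with counts summed per set and 129 with the set as a random effect, against 1872 in edgeR without.

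As a description over the 18 libraries, each gene's log2 CPM was set against the mean of the other 9. All genes were measured in the same libraries, which differ in depth and mitochondrial share. Pearson's r was 0.86 for Hsp90aa1, 0.82 for Dnajb1, 0.77 for Hspd1 and 0.74 for Hspa5, and -0.052 and -0.11 for Hspa1a and Hspa1b. For Hspe1, Hspa8, Bag3 and Hsph1 it was 0.65, 0.58, 0.45 and 0.33. With the group means removed it was 0.40 for Hspd1 and -0.21 for Hsph1, and 0.69, 0.75 and 0.69 for Hsp90aa1, Dnajb1 and Hspa5. Of the other genes, 10087 averaged 5 CPM or more, and those most like the mean of the 10 were Nsa2 (r = 0.96), Gna13 (0.96), Tgoln1 (0.95), Arl4c (0.94) and Snu13 (0.94). With the group means removed they were Sec61g (0.94), H3f3b (0.92), Sf3b6 (0.92), Snu13 (0.91) and Khk (0.91).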

How the data were processed

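RNA-seq of 18 BMMC libraries was analysed. Read counts per gene were deposited by the authors without normalization, per the file headers. The same deposited table gives FPKM and TPM as the authors computed them, per the file headers. bcl2fastq 2.20.0, FastQC 0.11.7, HISAT2 2.1.0, StringTie 2.1.3b and mm10 are named in the submitters' processing notes without roles. No source used here gives the strand setting or the treatment of reads with several matches. Total counts ran from 20026054 to 42265435 per library. Hspa1b had the fewest counts of the chaperone genes in any library, with 70 in its lowest.

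The counts were tested with edgeR 4.0.16 (R 4.3.3): genes were kept by filterByExpr, scaled by TMM and fitted by quasi-likelihood with 1 mean per group over the 18 libraries. Benjamini-Hochberg adjustment ran over 17159 genes, and adjusted p under 0.05 was called. CPM use the TMM library sizes. Within-set differences are log2(CPM + 0.1). No replicate libraries agreed within sampling noise. The scripts were tested on simulated counts.

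The replicate block was a term for each set in comparisons of levels and a term for each number in KO against WT. The number pairs libraries where every same-numbered correlation of deviations from the group means was over 0.1. That held for KO against WT at level 60 (0.431 to 0.526), for KO at level 20 against 0 (0.398 to 0.582), 60 against 0 (0.333 to 0.667) and 60 against 20 (0.373 to 0.598), and for WT at level 20 against 0 (0.622 to 0.763).

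The members and lists were chosen with earlier results of these data known. All 10 members are named, and of each other list at most 3 called genes with the largest fold changes, unless stated. Alternatives were other scalings, filters and tests (DESeq2 1.42.0, limma 3.58.1), a replicate block, limma on log2(TPM + 1) and log2(FPKM + 1), and libraries left out. Shared sequence was searched in windows of 100 bases of transcripts. Sequences come from RefSeq tables of GRCm38.p6.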

Additional observations from a re-analysis of the deposited data

How the results depend on the processing

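Of 1831 alternative values of the 67 fold changes given one by one, 50 turned sign, in 15 results, none of them called. Dnajb1 between KO and WT at level 0 (main value -0.16) was 0.013 with library sizes alone, 0.028 with limma-voom, 0.26 with TPM, 0.16 with FPKM and 0.46 without number 6110. Dnajb1 in WT at level 60 against 20 (0.043) was -0.050 with library sizes alone, -0.18 with limma-voom, -0.23 with the replicate block, -0.34 with TPM, -0.25 with FPKM and -0.57 without number 6110. The KO minus WT response of Dnajb1 at level 20 was -0.083 without number 6110, and Hspa1b between genotypes at level 20 was -0.019 without number 4120. Hsph1 at level 60 (0.0095) was -0.00041 with DESeq2 size factors, -0.0026 with a mean of 1 CPM or more, -0.0010 with the compared groups alone, -0.012 with mitochondrial share as covariate, -0.038 with FPKM and -0.070 without number 6110. Bag3 was -0.15 at level 60 and -0.15 over the mean of the levels with that covariate, and -0.028 over the mean without number 414. Hspa8 was 0.029 at level 60 and 0.041 over the mean with TPM, 0.096 and 0.10 without number 6110, and 0.40 and 0.26 with pseudogenes summed. Hsph1 over the mean was -0.014 without the 5 libraries over 20% mitochondrial counts. Leaving out 1 library gave -0.50 to 0.41 for Dnajb1 at level 0, -0.14 to 0.26 for Bag3, -0.065 to 0.13 for Hsph1 and -0.28 to 0.16 for Hspa8 at level 60, and -0.027 to 0.21 for Bag3 over the mean. It gave -0.0033 to 0.95 and -0.11 to 1.21 for Hspa1a at level 20 against 0 in KO and WT, -0.11 to 1.28 for Hspa1b in WT, and -0.68 to 0.40 for Dnajb1 in WT at level 60 against 20. For the response at level 20 it gave -0.85 to 0.47 for Hspa1a, -0.86 to 0.54 for Hspa1b and -0.18 to 0.73 for Dnajb1. The other 53 fold changes, given only in figures or as ranges, turned sign in 142 of 1409 values, in 36 results, none called.

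Of the 10 genes, the number called over the mean of the levels (1) was 0 with library sizes alone, limma-voom, no filter, the mitochondrial covariate, TPM, FPKM, adjusted p under 0.01, counts summed per set, without number 4120, without number 414 and without the libraries over 20% mitochondrial counts, and 2 with DESeq2 and without number 6110. In KO at level 20 against 0 (1) it was 0 at adjusted p under 0.01, without 4120, without 414 and without the libraries over 20%. In KO at level 60 against 0 (1) it was 3 with DESeq2, 5 with limma-voom, 2 with a mean of 1 CPM or more, 5 with the replicate block and 0 without number 4120. In KO at level 60 against 20 (0) it was 1 with DESeq2, 2 with limma-voom and 2 with the replicate block. In WT at level 20 against 0 (1) it was 0 with library sizes alone, the compared groups alone, TPM, adjusted p under 0.01, without 4120, without 414 and without the libraries over 20%. In WT at level 60 against 0 (0) it was 2 with DESeq2, 4 with limma-voom, 1 with no filter, 1 with a mean of 1 CPM or more, 4 with the replicate block and 1 with the covariate. In WT at level 60 against 20 (0) it was 3 with DESeq2, 1 with limma-voom and 1 with the replicate block. Leaving out 1 library gave 0 to 3 over the mean, 0 to 1 in both comparisons of level 20 with 0, 0 to 1 in WT and 1 in KO at level 60 against 0, and 0 elsewhere. The causes were not tested.

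The number did not pair WT libraries at level 60 by the check (lowest correlations 0.0232 and 0.00954), so their blocked calls carry that limit. With the block, 0 of 120 member values lost a call and 11 gained one. Genes called with the block and without it numbered 183 and 46 for KO against WT at level 60, 1832 and 436 for KO at level 60 against 0, 975 and 191 for KO at 60 against 20, 135 and 77 for KO at 20 against 0, 189 and 103 for WT at 20 against 0, 478 and 38 for WT at 60 against 0, and 585 and 76 for WT at 60 against 20. For KO against WT it was 208 and 47 at level 0, 119 and 36 at level 20, and 3972 and 1872 over the mean. DESeq2 called 251, 119, 226 and 2977 genes for KO against WT at levels 0, 20 and 60 and over the mean, 138, 967 and 543 in KO and 200, 258 and 327 in WT for level 20 against 0, 60 against 0 and 60 against 20. Over all alternatives the counts ran from 19 to 251, 18 to 119, 15 to 226 and 26 to 3972 between genotypes, 23 to 138, 20 to 1847 and 1 to 975 in KO, and 22 to 201, 0 to 478 and 2 to 585 in WT. The median over all tested genes shifted with library sizes alone, by 0.161 (KO against WT, level 0), by 0.113 (KO against WT, mean of levels) and by -0.221 (KO, level 60 against 0). Counts of 3 libraries a group, and reads shared with pseudogenes, limit what these values resolve.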
